A study of Rattus norvegicus with 2 samples.

Results

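Mitochondrial β-oxidation was described here through 10 enzymes and electron carriers of rat myocardium and the chromatin immunoprecipitation sequencing (ChIP-seq) peaks that carry their names. Members were fixed by name (Acadm, Acadvl, Hadha, Hadhb, Echs1, Ech1, Etfa, Etfb, Etfdh and Acaa2), and every peak of any class with one of these names in the authors' annotation was taken. This gave 18 of the 28706 peaks in the list, and they named 9 of the 10 members. The chromatin came from myocardium of male Wistar rats in which the abdominal aorta had been tied to a wire 0.7 mm thick above the renal arteries, a surgery that loads the heart with pressure. For these rats the labels list 2 libraries under replicate number 3, one from the immunoprecipitate and one from input chromatin. The input library was not analysed here and neither was any other group, so no comparison between conditions was made. The antibody is labelled by vendor and catalogue number, and its target was taken from the series title, which names lactylation of lysine 18 of histone H3 (H3K18la). Age, the number of animals behind the library, any pooling and any stimulation of the vagus nerve are not given in the labels. With 1 library there is no replicate error and no test on any value below.

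In β-oxidation, fatty acyl-CoA is shortened in the mitochondrial matrix by repeated rounds of dehydrogenation, hydration, a second dehydrogenation and thiolysis. Electrons of the first reaction pass from the acyl-CoA dehydrogenases to the electron transfer flavoprotein (ETF, encoded by Etfa and Etfb) and on to ubiquinone through the oxidoreductase encoded by Etfdh. The adult heart draws most of its energy from this pathway, and its use falls in pressure-loaded hypertrophy. Lactyl groups on H3K18 derive from lactate, and in other tissues this mark is known at active promoters and enhancers.

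4 promoter windows are shown because the peaks below bear on them. They run from 250 bases before to 50 bases after the start and come from RefSeq on assembly GRCr8, whereas the peaks lie on rn6, so windows and peaks were related only by distance from the start. Capitals mark matches to GGGCGG (the GC box), to AGGTCA (the core that nuclear receptors bind) and to the NRF1 consensus, on either strand. Hadha and Hadhb are shown as a head-to-head pair with overlapping windows, Etfb for its strong upstream peak, and Etfdh as the member without a peak.
Hadha, chr6:31907551-31907850, plus strand: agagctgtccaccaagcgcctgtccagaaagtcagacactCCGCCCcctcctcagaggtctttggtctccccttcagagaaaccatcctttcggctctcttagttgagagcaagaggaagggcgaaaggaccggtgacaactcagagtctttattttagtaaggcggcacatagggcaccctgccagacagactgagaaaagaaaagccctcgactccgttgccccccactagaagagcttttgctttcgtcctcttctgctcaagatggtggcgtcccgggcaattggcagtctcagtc
Hadhb, chr6:31907451-31907750, minus strand: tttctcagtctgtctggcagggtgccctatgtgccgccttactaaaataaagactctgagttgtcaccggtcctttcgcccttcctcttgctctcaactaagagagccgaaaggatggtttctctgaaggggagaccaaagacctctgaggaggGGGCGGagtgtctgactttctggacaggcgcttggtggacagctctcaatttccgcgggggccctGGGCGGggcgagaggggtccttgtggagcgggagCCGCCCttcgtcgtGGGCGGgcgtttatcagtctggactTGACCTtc
Etfb, chr1:102988249-102988548, plus strand: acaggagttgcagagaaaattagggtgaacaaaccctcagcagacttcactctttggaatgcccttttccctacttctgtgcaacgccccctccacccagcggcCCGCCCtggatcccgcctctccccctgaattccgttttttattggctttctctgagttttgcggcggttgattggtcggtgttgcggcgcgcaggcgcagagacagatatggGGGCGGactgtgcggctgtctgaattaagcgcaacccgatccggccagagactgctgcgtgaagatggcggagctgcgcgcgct
Etfdh, chr2:167060709-167061008, minus strand: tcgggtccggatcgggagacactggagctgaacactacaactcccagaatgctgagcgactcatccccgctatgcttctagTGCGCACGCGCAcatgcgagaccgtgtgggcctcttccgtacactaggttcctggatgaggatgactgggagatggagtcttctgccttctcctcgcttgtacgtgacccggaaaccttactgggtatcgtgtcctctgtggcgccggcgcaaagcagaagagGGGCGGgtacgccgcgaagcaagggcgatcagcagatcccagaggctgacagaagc

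Most members carried peaks close to their start. Of the 10 members, 9 had a peak of any class (90%, 95% Clopper-Pearson interval 55.5 to 99.7%), against 27.1% of 23154 protein-coding genes. A peak centred within 1000 bp of the annotated transcription start stood at 7 members (70.0%, 34.8 to 93.3%), against 17.1% of these genes. A peak of the promoter class stood at 5 members (50%, 18.7 to 81.3%), against 9.87% of these genes. These intervals cover counting error only, since members were chosen by function and genes of 1 library are not replicates. The members were also chosen with earlier results of these data known, which the intervals do not cover. The protein-coding genes include those silent in the heart. By number of peaks, 3 members had 1, 4 had 2, Echs1 had 3 and Ech1 had 4, where protein-coding genes with a peak had a median of 2.

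**Figure D1:**
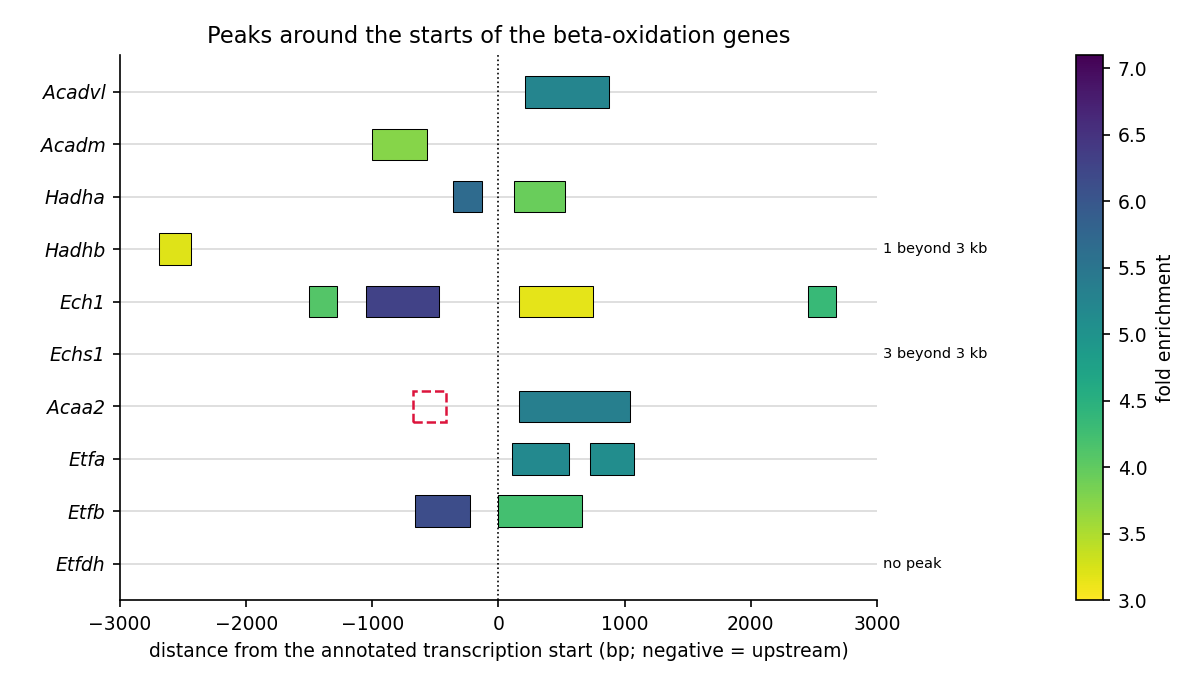
Peaks within 3000 bp of the annotated start of each member, drawn to scale on the distance axis (bp, upstream negative) and coloured by the authors' fold enrichment. The dashed outline at Acaa2 is a peak that carries another gene's name. 7 members have a peak centred within 1000 bp of the start, Hadhb and Echs1 have peaks further away, and Etfdh has none.

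The 2 acyl-CoA dehydrogenases each had 1 peak, on opposite sides of the start. Acadvl, which encodes the dehydrogenase for very long chains at the inner membrane, had a peak of 667 bp in exon 3, centred 543 bp downstream of the start (rn6 chr10:56623650-56624316). Its fold enrichment over the caller's background, the authors' own value as are all folds here, was 5.23, with −log10 q of 7.79. Acadm, which encodes the medium-chain dehydrogenase, had a peak of 442 bp in its promoter, centred 785 bp upstream (chr2:260149154-260149595), at 3.74-fold with −log10 q of 4.08. The Acadvl value lay at percentile 84.6 of all peaks in the list and that of Acadm at 32.4. In GRCr8 the protein-coding genes on either side of Acadm (Rabggtb and Slc44a5) and of Acadvl (Dvl2 and Dlg4) carried no peak of their name. Each peak carries the name of 1 gene only, so this does not show that a peak belongs to the member alone.

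The trifunctional protein binds the inner membrane and carries out the reactions after the first dehydrogenation for long chains. Its α subunit gene, Hadha, had a peak on each side of its start. The upstream peak was short, 223 bp, and reached 5.68-fold with −log10 q of 9.26, centred 246 bp before the start (chr6:27589300-27589522). The downstream peak, in intron 1 and 327 bp after the start, reached 3.93-fold (chr6:27589784-27590185). Hadhb, the β subunit gene with the thiolase activity, had 2 peaks of its name, both away from its annotated start. The stronger was in intron 5, 11785 bp downstream, at 4.82-fold (chr6:27570956-27571444). The weaker was intergenic, 2565 bp upstream, at 3.20-fold with −log10 q of 2.17 (chr6:27585431-27585689), the lowest −log10 q of the 18 peaks.

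Both subunit genes are read in opposite directions from one region, and the distance between their starts differed between annotations. The peak annotation placed them 6.66 kb apart on rn6, with the weaker Hadhb peak between them. RefSeq on GRCr8 places them 301 bp apart, and their windows printed above share 200 bases on opposite strands. The upstream Hadha peak spanned -358 to -135 bp from the Hadha start, a stretch that would hold a Hadhb start 301 bp away. Whether the rn6 sequence has the Hadhb start there was not tested, so a count of 0 peaks within 1000 bp at Hadhb rests on the start that the annotation used.

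Ech1 had the most peaks. It encodes a dienoyl-CoA isomerase that handles unsaturated fatty acids in mitochondria and peroxisomes. Its promoter peak, centred 761 bp upstream, had the highest fold of the member peaks within 1000 bp of a start. It reached 6.29-fold with −log10 q of 10.4 (chr1:87008680-87009258) and ranked 1339 of the whole list by fold. The Etfb promoter peak was close, at 6.15-fold, and had the higher −log10 q of 10.5. The other 3 Ech1 peaks were weaker, at 4.10-fold 1389 bp upstream, 3.17-fold 458 bp downstream in intron 1 and 4.33-fold 2561 bp downstream in intron 3. A further peak at the Ech1 termination site carried the name of the next gene, Lgals4 (4.62-fold, chr1:87016087-87016764). On the other side in GRCr8 order, Hnrnpl, which encodes a splicing regulator, gave its name to 5 peaks of up to 7.81-fold. Of these, 1 was centred within 1000 bp of the Hnrnpl start.

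The peaks named for Echs1 did not lie at Echs1. This gene encodes the short-chain enoyl-CoA hydratase, and 3 peaks carried its name, centred 25053, 22326 and 21169 bp upstream of the annotated start. They reached 4.09-fold (chr1:141796100-141797626), 7.05-fold (chr1:141798856-141800325) and 5.59-fold (chr1:141800564-141800930). The second is the strongest of all 18 peaks, with −log10 q of 14.1. All 3 were classed as intron 1 of the transcript of Zfp710, a zinc finger gene. That intron held 22 peaks, of which 11 were named Zfp710, 3 Echs1 and 8 Fuom, and those not named Echs1 ranged from 3.24-fold to 7.48-fold. Between the last Echs1 peak and the first Fuom peak lay 43.1 kb without a peak, and the starts of Echs1 and Fuom both fall in it. In GRCr8 order, Echs1 lies between Fuom and Paox and is separated from Zfp710 by 820 protein-coding genes, while Zfp710 is next to Idh2. Which placement holds for these rats was not tested. No peak stood within 20 kb of the Echs1 start in this annotation, and whether one lies at the GRCr8 place of Echs1 was not tested.

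**Figure D2:**
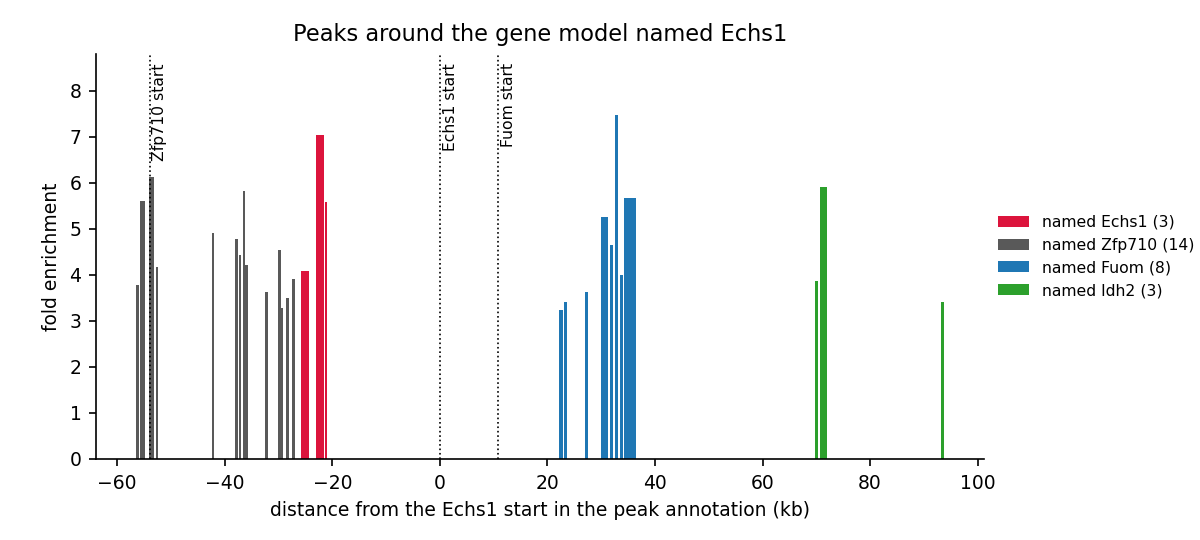
Fold enrichment (vertical axis, authors' value) of the peaks named Zfp710, Echs1, Fuom and Idh2 by distance in kb from the annotated Echs1 start. Bars are peaks, widened to 0.5 kb where shorter, and dotted lines are annotated starts. The Echs1 and Fuom starts stand in a stretch of 43.1 kb without a peak.

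Acaa2, which encodes the mitochondrial 3-ketoacyl-CoA thiolase of the last step, had 1 peak of its name. It was 880 bp long, centred 600 bp downstream of the start, and reached 5.35-fold with −log10 q of 6.78 (chr18:70734033-70734912). Its promoter class came from a small Cajal body RNA (scaRNA) transcript and not from Acaa2. A second peak, classed as promoter by an Acaa2 transcript and centred at -549 bp from the Acaa2 start, carried the name of the unnamed model AABR07032532.1 (5.11-fold, chr18:70733192-70733454). Acaa2 thus had a peak on each side of its start by position but only the downstream one by name.

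The 2 subunits of ETF both had 2 peaks near the start, and the oxidoreductase that takes up the ETF electrons had none. Etfb had a promoter peak centred 446 bp upstream at 6.15-fold with −log10 q of 10.5 (chr1:98487204-98487641), and a second one centred 328 bp downstream at 4.22-fold (chr1:98486314-98486983). The second was classed as the termination site of another transcript. Its edge lay at -7 bp, which made it the 1 member peak that reached over a start. Etfa had both peaks in intron 1, centred 335 bp and 898 bp downstream, at 5.17-fold (chr8:60085845-60086292) and 5.11-fold (chr8:60085330-60085680), so the values were alike and no upstream peak was listed.

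No peak carried the name of Etfdh, nor of Ppid and C2h4orf46, its neighbours in GRCr8. The place of Etfdh on rn6 is not in the files used here and was taken from this gene order, in which Fnip2 follows Ppid. A Fnip2 peak (4.0-fold, chr2:178334248-178334486) and the Tmem144 promoter peak (4.23-fold, chr2:178616940-178617172) were consecutive in the list and 282 kb apart on rn6. This gap was longer than 93.9% of gaps between neighbouring peaks, whose median was 4.64 kb. It was picked around a gene without a peak, which favours long gaps. Its length thus does not set Etfdh apart from other genes without a peak. The absence means that no peak was listed at this depth and threshold. The Etfdh window above holds the NRF1 consensus, which 1.48% of protein-coding promoters hold.

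The median fold enrichment of the member peaks lay above that of the list, by less than its interval resolves. It was 4.96 (range 3.17 to 7.05, 18 peaks, order-statistic interval of the median 4.09 to 5.59), against 4.13 for the other 28688 peaks (quartiles 3.62 and 4.79). Without the 3 Echs1 peaks the median was 4.82 (interval 3.93 to 5.35). Both intervals contain the 4.13 of the other peaks. Fold enrichment reached at least 4 in 14 member peaks (77.8%), against 55.5% of the others. The −log10 q was at least 5 in 11 member peaks (61.1%), against 32.0% of the others. Without the Echs1 peaks these member shares were 73.3% and 60%. No interval was computed for these shares, so their difference from the others was not tested. Among peaks within 1000 bp of a start, the medians were 5.17 over 11 member peaks (interval 3.74 to 6.15) and 4.13 over 5558 others, a value inside that interval. The list reached 13.7-fold, against 7.05-fold for the strongest member peak, and the median width was 445 bp for members and 375 bp for the others. The intervals here are those of a median under the assumption of independent peaks, which peaks of the same gene may not be. They stand in for no replicate.

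**Figure D3:**
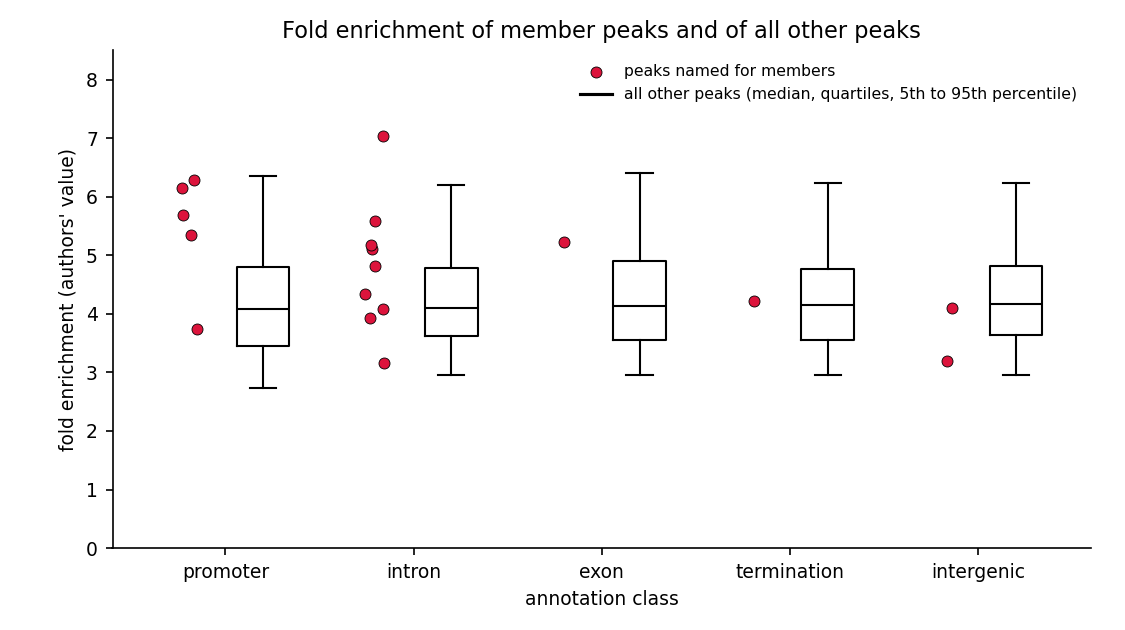
The authors' fold enrichment (vertical axis) by annotation class. Red points are the 18 peaks named for members and boxes are all other peaks, with median, quartiles and the 5th to 95th percentile. 4 of 5 member promoter peaks lie above 5, and the intron peaks range from 3.17-fold to 7.05-fold.

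By class, 5 member peaks were promoter, 9 intron, 1 exon, 1 termination site and 2 intergenic. Intergenic peaks made up 11.1% of member peaks, against 41.1% of the others, and promoter peaks 27.8% against 9.77%. The class of a peak often came from another transcript, since 11 of the 18 were classed by a transcript of the member itself, 5 by another transcript and 2 had none. For the promoter class alone this was 4 by the member's own transcript and 1, that of Acaa2, by another.

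Around the start, the member peaks stood to both sides and rarely on it. Of the 11 within 1000 bp, 7 were centred downstream and 4 upstream, and of the other peaks 3321 were centred downstream and 2236 upstream, so most lay downstream in both. Most overlap of member peaks was from 225 to 525 bp downstream, where 6 peaks covered the same position. The other peaks of the list had their maximum at 325 bp downstream as well, where 2518 overlapped. They had a lesser maximum at -450 bp with 1339 and a minimum between at -275 bp with 1196, and 1781 covered the start. Of the 11 member peaks, 1 reached over the start (9.09%, 0.230 to 41.3%), against 31.6% of 5558 other peaks, a share inside that interval, so the difference is not resolved with 11 peaks. Hadha, Etfb and Ech1 each had a stronger upstream and a weaker downstream peak, at 5.68 and 3.93-fold, 6.15 and 4.22-fold, and 6.29 and 3.17-fold. At Acaa2 the upstream peak of another name had 5.11-fold and the downstream peak 5.35-fold.

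**Figure D4:**
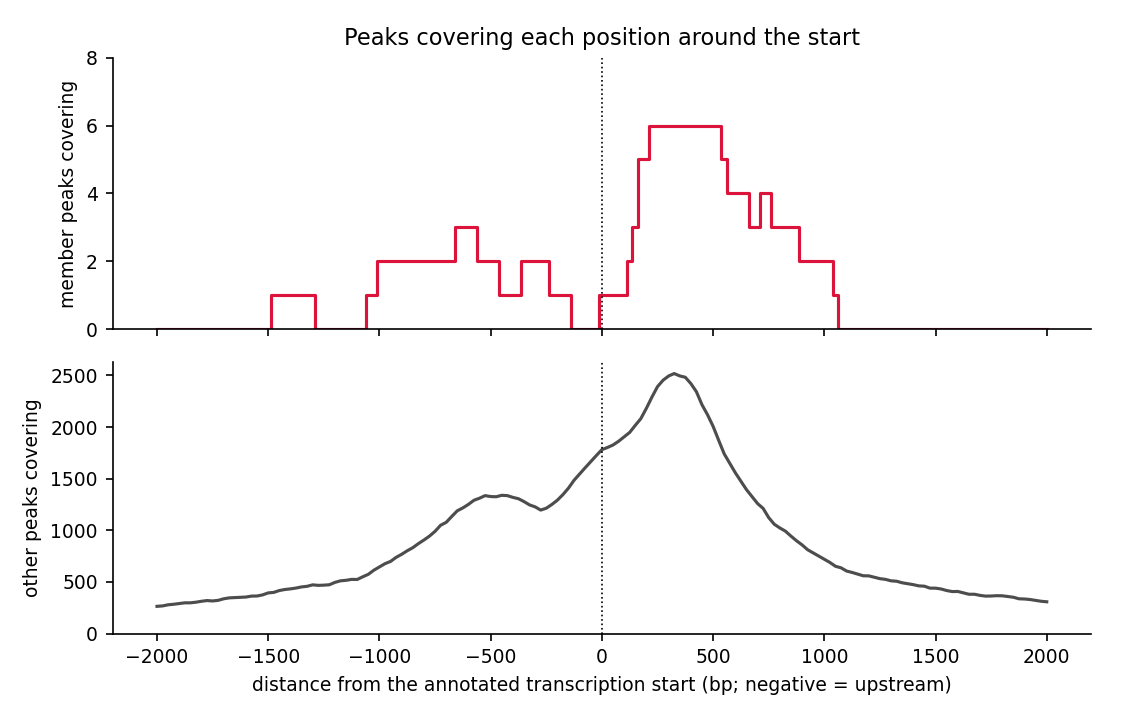
Number of peaks that cover each position around the annotated start (bp, upstream negative), for peaks named for members (top) and for all other peaks (bottom). Member peaks are densest from 225 to 525 bp downstream and the other peaks at 325 bp downstream.

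A promoter window was found for 8 members, all but Ech1 and Acaa2. GC content had a median of 58.7% (range 54.3 to 65.0%), against a median of 55.3% (quartiles 46.7 and 63.7%) over 19005 protein-coding promoters. CpG dinucleotides had a median of 16.5 per window (range 11 to 24), against a median of 12 (quartiles 4 and 24), and the range of the members lay within those quartiles. GGGCGG occurred in 6 of the 8 windows, all but Acadvl and Etfa, and in 43.1% of all promoters. The match in the Hadha window is also one of the Hadhb window, since it lies in the shared bases. AGGTCA occurred in Acadvl, Hadhb and Echs1, and in 14.0% of all promoters. None of the 8 held TNAAGGTCA, the element of the estrogen-related receptors, which 0.994% of all promoters hold. None held CACGTG, the E-box (7.27% of all), or an exact direct repeat of AGGTCA with 1 base between, as bound by PPAR with RXR (0.0263% of all). These are matches of letters in one window per gene, on another assembly than the peaks. By distance from the rn6 starts, peaks reached into this window at Hadha and Etfb. The peak distances place Etfb on the minus strand of rn6, whereas its GRCr8 window lies on the plus strand. Whether the 2 Etfb starts match was not tested. With the GRCr8 distance between the starts, the upstream Hadha peak would also reach into the Hadhb window.

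Other enzymes of the same mitochondrial pathway, listed with earlier results of these data known, carried peaks as well, and their difference from the members was not tested. Of 10 such genes, 5 had any peak (50%, 18.7 to 81.3%), against 27.1% of protein-coding genes. Within 1000 bp of the start, 3 genes had one (30.0%, 6.67 to 65.2%), against 17.1%. Both intervals contain the share of all protein-coding genes. The genes with a peak near the start are named next. These 3 were Hsd17b10, a short-chain hydroxyacyl-CoA dehydrogenase gene on the X chromosome, at 4.81-fold and 506 bp upstream, Acadl, the long-chain dehydrogenase gene, at 4.49-fold and 243 bp downstream, and Acad10 at 4.14-fold and 666 bp downstream. No peak carried the name of Acad9, Acad11, Hadh, Eci1 or Eci2. Hadh encodes the short-chain hydroxyacyl-CoA dehydrogenase that follows Echs1 in the pathway. Of 8 genes for other dehydrogenases that feed ETF and for factors that act on it, 2 had a peak (25%, 3.19 to 65.1%). These were Sardh at 4.68-fold and Etfbkmt at 5.03-fold, and none had one within 1000 bp of the start (0 to 36.9%). Both intervals contain the share of all protein-coding genes. The median fold over the peaks was 4.32 for the first of these lists (8 peaks) and 4.63 for the second (5 peaks), against 4.96 for the members.

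**Figure D5:**
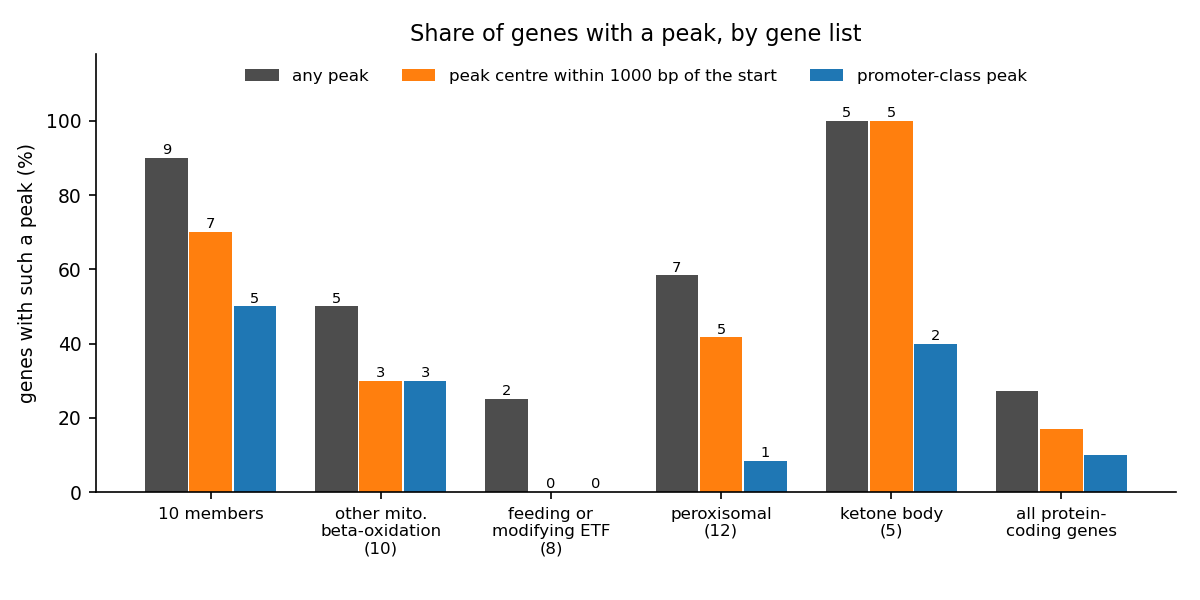
Percentage of genes with any peak, with a peak centred within 1000 bp of the start and with a promoter-class peak, for the 10 members, 4 related lists (number of genes in parentheses) and all protein-coding genes. Digits on bars are gene counts. The members stand at 90, 70 and 50%, against 27.1, 17.1 and 9.87% of all protein-coding genes.

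The label of the tissue was set against marker genes. Any peak stood at 8 of 12 cardiomyocyte markers, among them Tnnt2, Tnni3, Myh7 and Pln, while Myh6, Ryr2, Ttn and Tbx5 had none. It stood at 5 of 6 endothelial, 1 of 7 fibroblast, 1 of 6 immune, 2 of 6 smooth muscle and pericyte, 2 of 6 adipocyte and 1 of 5 hepatocyte markers, where 27.1% of protein-coding genes had any peak. The intervals were 34.9 to 90.1% for cardiomyocyte and 35.9 to 99.6% for endothelial markers, above that share, and those of the other lists contained it. Within 1000 bp of the start, 5 of 12 cardiomyocyte (15.2 to 72.3%) and 5 of 6 endothelial markers (35.9 to 99.6%) had a peak. Of protein-coding genes 17.1% had one, a share inside the cardiomyocyte interval and below the endothelial one. The members are expressed in both cell types and in others, and which cells gave the member peaks was not tested. Sequencing depth is unknown. The values were coarse, since the 28706 peaks took 1838 distinct pairs of fold and p. Of all peaks 98.1% shared theirs exactly with other peaks, as did 16 of the 18 member peaks. Small differences in fold between members are thus not resolved.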

How the data were processed

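H3K18la ChIP-seq peaks of 1 library were used, from rat myocardium under abdominal aortic constriction. The submitters' processing notes name MACS2, HOMER, Bowtie2, SAMtools, Trim Galore, FastQC and deepTools and the build rn6, without versions. Peaks were called at q 0.05 and annotated with HOMER's annotatePeaks.pl, per the file headers. Whether the input was the background of the call is not given in the sources used here. The authors deposited fold enrichment per peak, a ratio over the background of the caller, and p and q are deposited as −log10 values. The deposited score was not used. Distance is from the peak centre to the nearest annotated start, per the file headers.

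Peaks were joined by peak name and selected by gene name. Names were matched to a RefSeq gene table of GRCr8 (78.6% of 8094 names), which gave names, the order of genes and 23154 protein-coding genes as background. All 10 members and all 83 genes of the other lists had a row in it. Peaks of unmatched names were not counted in the background shares, which may thus be too low. Starts and strands were derived from peak centres and distances. Shares have 95% Clopper-Pearson intervals (scipy 1.17.1). With 1 library no test was run. All 10 members were named, and of each related list the genes with a peak at the promoter or within 1000 bp, up to 4, and absent genes where 5 or fewer. Some genes of the related lists are not reported here. Members and lists were chosen with earlier results of these data known. Counting was tested on simulated peak tables. Alternatives changed the threshold, the promoter definition, the naming and the merging of peaks.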

Additional observations from a re-analysis of the deposited data

How the results depend on the processing

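Of 28 alternative values, 25 stayed within 1.5 times the reported count or inside the interval of the median, and 3 did not. With −log10 q of at least 5, 11 peaks were left in place of 18. With centres within 3000 bp counted as promoter, 8 members had a promoter peak in place of 5. Of genes with any peak, 36.5% had a promoter-class peak, in place of 9.87% of all protein-coding genes. On that base, 5 of the 9 members with a peak had one. Within 1000 bp of the start, 3954 of the 6267 protein-coding genes with any peak had one, and 7 of these 9 members. At −log10 q of at least 5, 7 members had any peak (14.4% of protein-coding genes), and at fold enrichment of at least 4, 8 members had one (19.7%). Acadm had no peak under either. Alternatives without Echs1, with the promoter class of the member's own transcript and with peaks of another name were chosen after seeing the data, and gave 8 members with any peak, 4 with a promoter peak and 20 peaks. Ranking by −log10 q left the strongest peak the same in all 9 members with a peak. No paired analysis was possible because the input library had no values here. Depth is unknown and limits what an absent peak can show.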

Other observations

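Ketone body use and peroxisomal β-oxidation share substrates or products with the mitochondrial pathway. All 5 listed ketone body genes had any peak and one within 1000 bp of the start (100%, 47.8 to 100% for both). The shares were 90% and 70% for the members and 27.1% and 17.1% for protein-coding genes. Oxct1, the enzyme with which the heart activates ketone bodies, had a promoter peak of 5.35-fold centred 579 bp upstream of its start. Acat1, a mitochondrial acetoacetyl-CoA thiolase gene, had a peak of 3.34-fold centred 149 bp downstream, and Bdh1, the 3-hydroxybutyrate dehydrogenase gene, one of 2.82-fold centred 540 bp downstream.

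Of 12 peroxisomal genes, 7 had any peak (58.3%, 27.7 to 84.8%) and 5 one within 1000 bp of the start (41.7%, 15.2 to 72.3%), against 27.1% and 17.1% of protein-coding genes. The first interval lies just above its background share, and the second contains it. The background leaves out peaks of unmatched names and may be too low, so the first difference is not resolved. Their peaks had a median of 3.81-fold, below the 4.96-fold of the members and the 4.13-fold of the other peaks in the list, with no test of the difference. Peaks near a start included those of Hsd17b4, which encodes the D-bifunctional protein, at 4.55-fold, of the transporter gene Abcd3 at 3.81-fold and of Amacr at 3.64-fold. No peak carried the name of Acox2, Ehhadh, Acaa1a, Abcd2 or Decr2.

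Idh2, the mitochondrial isocitrate dehydrogenase gene beyond the stretch that holds the Echs1 and Fuom models, had a peak of 5.91-fold centred 456 bp downstream of its start (chr1:141892563-141893873).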
